A study of Mus musculus with 71 samples.

Results

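Usp48, Vps33a and Tnrc6c are 3 of the 21527 genes counted in a SLAM-seq time course of male mouse embryonic stem cells (mESC) treated with STM2457, a small-molecule inhibitor of the m6A methyltransferase Mettl3. They were chosen by their measured reads: after 6 h of STM2457 their 3′ end reads stood furthest below DMSO of the 39 genes called lower there, and the comparison after 18 h had been made for them too. The values of both comparisons are therefore descriptions here, and tests are given only for other libraries and for another readout, the conversion rate.

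The cells, 1 male line grown on gelatin in 2i/LIF medium, were labelled with 100 µM 4-thiouridine (s4U) for 24 h, and the label was then chased with an excess of uridine. For the last 6 h of labelling and through the chase, the medium held 20 µM STM2457 or, in the controls, the solvent DMSO. RNA was taken after 0, 1, 1.5, 2.3, 3.5, 5.3, 8 and 12 h of chase from 4 replicates per treatment, except that 3 libraries were analysed for STM2457 at 3.5 h, so the treatment had lasted from 6 to 18 h. Each treatment also has 4 libraries of cells without s4U, for which the sources used here do not give the hours of treatment, and the 71 libraries fall into 18 conditions of treatment and time.

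Mettl3 writes m6A on nascent mRNA, mostly at a short consensus sequence and often near the stop codon. Reader proteins that bind m6A in the cytoplasm bring deadenylases to the mRNA, so that m6A commonly shortens its life. Usp48 encodes a deubiquitinase that removes ubiquitin from its substrates. Vps33a encodes the Sec1/Munc18-type subunit of the HOPS and CORVET complexes, which tether endosomes and lysosomes before they fuse. Tnrc6c encodes 1 of the 3 GW182 proteins, which link Argonaute to the deadenylases in microRNA silencing.

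All 3 genes are autosomal, and their principal mRNAs in GENCODE M21 (GRCm38) have long 3′ UTRs. Usp48 (ENSMUSG00000043411.15) lies on the plus strand at chr4:137593755-137658537, and its principal mRNA has 27 exons, 5741 bases and a 3′ UTR of 2387 bases. Vps33a (ENSMUSG00000029434.12) lies on the minus strand at chr5:123528659-123573038, with 13 exons, 4235 bases and a 3′ UTR of 2381 bases. Tnrc6c (ENSMUSG00000025571.13) lies on the plus strand at chr11:117654289-117763439, with 22 exons, 8847 bases and a 3′ UTR of 2588 bases. These 3′ UTRs are longer than those of 80.0% (Usp48), 80.0% (Vps33a) and 82.5% (Tnrc6c) of the 10544 genes that were tested at 0 h and have a coding gene model, whose median is 992 bases.

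The sequences that bear on the inhibitor's target are the m6A consensus matches, searched as GGACA or GGACC or GGACT on the sense strand of the mRNA. Shown here, with the match in capitals, is the one in each 3′ UTR nearest to the stop codon, 248 bases beyond it in Usp48, 147 in Vps33a and 64 in Tnrc6c.
Usp48, chr4:137656381-137656409, plus strand: gagggcgagcgaGGACTgagcaggcagag
Vps33a, chr5:123530876-123530904, minus strand: atcctaaagaagGGACAagcaacctggat
Tnrc6c, chr11:117760904-117760932, plus strand: gctccagctgacGGACAagctgccccttg

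The Usp48 and Tnrc6c mRNAs also hold a match in the coding sequence closer to the stop codon than these. In Usp48 it lies directly upstream of it, in the last exon, and in Tnrc6c it lies in the last codons.
Usp48, chr4:137656124-137656152, plus strand: acgggcctgctcGGACAttaatctttgac
Tnrc6c, chr11:117760812-117760840, plus strand: tctgctgcctggGGACCtgctcagcggcg

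The principal mRNA of Usp48 holds 20 such matches, that of Vps33a 22 and that of Tnrc6c 53. At least 1 match is found in 99.4% of the 10544 mRNAs and in 81.4% of their 3′ UTRs, so that a match alone sets no gene apart. Per kb the density was 3.48 in Usp48, 5.20 in Vps33a and 5.99 in Tnrc6c, beside a median of 3.67, and 45.5%, 80.9% and 89.7% of the mRNAs had fewer per kb. Over the whole mRNA the density of Usp48 thus lay near the middle. That of Tnrc6c lay in the upper part, where its long coding sequence held 39 of the 53 matches. In the 3′ UTR alone the density was 4.19 per kb in Usp48, 5.04 in Vps33a and 4.25 in Tnrc6c, beside a median of 2.59. Of 10458 3′ UTRs, 74.5%, 82.75% and 75.3% had fewer per kb. Whether any of these matches carried m6A was not measured in these libraries.

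**Figure D1:**
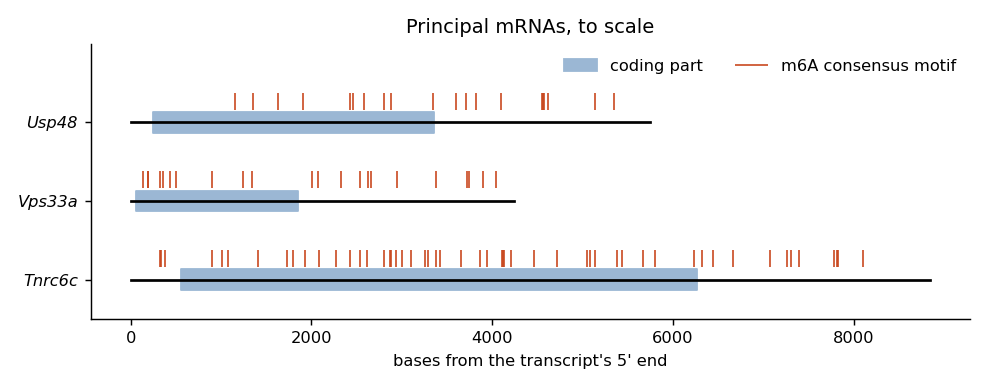
Principal mRNAs of Usp48, Vps33a and Tnrc6c drawn to scale in bases from the 5′ end, with the coding part as a bar, the UTRs as lines and each m6A consensus match as a tick. The mRNAs hold 20, 22 and 53 matches, of which 10, 12 and 11 lie in the 3′ UTR.

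The reads of these libraries come from the 3′ ends of polyadenylated mRNA, and the counted windows span 507 bases in Usp48, 500 in Vps33a and 262 in Tnrc6c. The annotated 3′ end of Usp48 has the poly(A) signal ATTAAA and that of Tnrc6c has AATAAA, shown in capitals below. In the last 60 bases of the mRNA, 80.5% of the 10544 mRNAs hold 1 of both hexamers, and neither is found in that window of Vps33a.
Usp48, chr4:137658492-137658521, plus strand: tctgccaaATTAAAgacacttgtgtctctg
Tnrc6c, chr11:117763398-117763427, plus strand: tgagtcttAATAAActgcagtttttcttgg

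A library had 4539726 to 7368244 reads on all windows together (median 5726508). No replicate pair held identical counts. Levels are given as CPM, the reads of a gene per 1000000 counted reads of its library. These levels and the fitted fold changes are therefore relative to the other genes. For its RNA-seq, the paper warned that scaling to total transcripts can bias values where a treatment affects most genes. It scaled to genes without m6A sites there, which was not done here. Markers of pluripotent cells (7 found in the files) summed to between 3291 and 4696 CPM in DMSO and between 3597 and 4525 in STM2457. Of these, 2 of 7 were called higher in STM2457 at 0 h and 3 of 7 at 3.5 h. At 8 and 12 h it was 4 of 7, and at 1.5 and 5.3 h 1 of 7. It was 1 of 6 tested at 2.3 h, and 0 at 1 h and in unlabelled libraries. Among genes tested, 115 of 10852 were called higher at 0 h, 217 of 10953 at 3.5 h and 351 of 10866 at 8 h. The numbers were 634 of 11007 at 12 h and 778 of 10727 at 1.5 h. They were 325 of 10851 at 2.3 h and 101 of 10737 at 5.3 h. Of the other markers, 1 of mesoderm was called lower at 1.5 and 5.3 h, and the 1 tested of trophoblast lower at 1.5 h and higher at 12 h. Among genes tested, 6.49% were called lower at 1.5 h and 0.54% at 5.3 h. The part of the called markers in the results was not tested. The marker sums for endoderm, mesoderm, neural, trophoblast and fibroblast cells stayed at or under 95.001 CPM in every library, with Col3a1 at 0 in all STM2457 libraries. The files hold 4, 3, 1, 2 and 4 of these markers, so the neural sum rests on 1 gene. Only 17 of 11503 reads on Usp48, 0 of 3561 on Vps33a and 4 of 2912 on Tnrc6c mapped to several places, against 22.5% to 28.8% of all counted reads per library. Since the libraries are bulk RNA, fewer transcripts per cell and fewer cells that express the gene cannot be told apart. Only reads in the counted windows enter these values, so mRNA that ended elsewhere would not be counted. GENCODE M21 lists 17 transcripts of Usp48, 4 of Vps33a and 6 of Tnrc6c, and a change of 3′ end was not tested.

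After 6 h of STM2457, at the onset of the chase, all 3 genes stood 3.5 to 5.6 times below DMSO. Usp48 had 37.7, 51.9, 44.1 and 38.2 CPM in the 4 DMSO libraries and 11.9, 11.4, 10.7 and 10.0 in the 4 STM2457 libraries. Vps33a had 15.7, 17.2, 19.2 and 14.8 in DMSO and 2.54, 4.46, 1.50 and 3.34 in STM2457. Tnrc6c had 13.3, 12.6, 8.15 and 8.41 in DMSO and 3.02, 3.21, 3.00 and 2.73 in STM2457. In none of the 3 genes did the treatments overlap, and the lowest DMSO library was at least 2.5 times above the highest STM2457 library. Every STM2457 library lay below every DMSO library in 5.5% of the genes tested at 0 h. The choice of the genes favours such an order, so nothing is read from it.

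The fitted log2 fold changes at 0 h were −1.95 ± 0.18 (SE) for Usp48, −2.49 ± 0.31 for Vps33a and −1.81 ± 0.34 for Tnrc6c. Of all 10852 genes tested at 0 h, 0.359% were called lower at an adjusted p-value under 0.01, and nothing is read from that share because this comparison chose the genes. Among the 39 called genes they took the positions 1 (Vps33a), 2 (Usp48) and 3 (Tnrc6c) by fold, and the next were B230354K17Rik (−1.60 ± 0.32), Tmem186 (−1.60 ± 0.34) and Mplkip (−1.59 ± 0.20).

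The unlabelled libraries, which never saw s4U, showed lower reads of the same genes. Tnrc6c had 12.8, 10.2, 8.38 and 18.6 CPM in unlabelled DMSO libraries and 3.58, 3.41, 1.71 and 2.05 in unlabelled STM2457 libraries. Usp48 had 38.8, 40.2, 31.1 and 34.7 in DMSO and 10.9, 15.9, 21.1 and 21.4 in STM2457. Vps33a had 11.9, 13.5, 8.70 and 6.90 in DMSO and 4.15, 4.60, 2.95 and 2.99 in STM2457. The treatments did not overlap in any of the 3 genes, although the unlabelled STM2457 libraries of Usp48 spread almost 2-fold among themselves. Over all 10708 genes tested in unlabelled libraries, every STM2457 library lay below every DMSO library in 5.3%.

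In edgeR's quasi-likelihood test on the unlabelled libraries, Tnrc6c fell by 2.21 ± 0.39 (SE) on the log2 scale (adjusted p = 0.00299) and Usp48 fell by 1.06 ± 0.21 (adjusted p = 0.00742). Vps33a had a log2 fold change of −1.48 ± 0.37 and did not pass the threshold of 0.01 (adjusted p = 0.0265). Of all 10708 genes tested, 0.205% were called lower in these libraries. The Usp48 call was lost when 7 of the 8 libraries were left out in turn, that is each except DMSO replicate 4, and the Tnrc6c call when DMSO replicate 4, STM2457 replicate 3 or STM2457 replicate 4 was, with fold changes that stayed between −1.17 and −0.91 and between −2.39 and −1.96.

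From 1 to 8 h of chase, after 7 to 14 h of STM2457, the fold changes of the 3 genes were below 0 at every time point, but they passed the test only at some of them. At 1 h the log2 fold changes were −1.48 ± 0.19 (SE) for Usp48, −1.55 ± 0.31 for Vps33a and −1.40 ± 0.40 for Tnrc6c. None passed edgeR's test (adjusted p = 0.0608, 0.157 and 0.372), and 0% of the 10807 genes tested at 1 h were called lower, with 757 at an unadjusted p under 0.05. With DESeq2, 44 genes were called at 1 h, among them Usp48 (adjusted p = 9.58e-08) and Vps33a (adjusted p = 0.00257).

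At 1.5, 2.3 and 3.5 h all 3 genes fell. Usp48 had log2 fold changes of −1.45 ± 0.21, −1.31 ± 0.19 and −1.28 ± 0.19 (edgeR, adjusted p = 7.27e-05, 1.71e-05 and 8.71e-06). Vps33a had log2 fold changes of −1.97 ± 0.34, −1.49 ± 0.31 and −2.15 ± 0.41 (edgeR, adjusted p = 0.000336, 0.00134 and 0.00037). Those of Tnrc6c were −2.37 ± 0.47, −2.52 ± 0.40 and −3.93 ± 0.50 (edgeR, adjusted p = 0.00117, 5.17e-05 and 5.95e-07). Of all genes tested, 6.49%, 1.18% and 0.849% were called lower at these 3 times. At 3.5 h only 1 gene in 10953 had a lower fold change than Tnrc6c.

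The lowest level of the series was that of Tnrc6c at 3.5 h, where STM2457 libraries held 5, 2 and 7 reads on the gene. This is 0.874, 0.351 and 1.24 CPM, against 12.9, 13.6, 10.5 and 14.6 in the 4 DMSO libraries (67, 78, 66 and 80 reads). The fitted level in STM2457 was 6.56% of DMSO, a 15.3-fold difference that rests on 14 reads in 3 libraries. With each library left out in turn the log2 fold change stayed between −4.34 and −3.57.

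**Figure D2:**
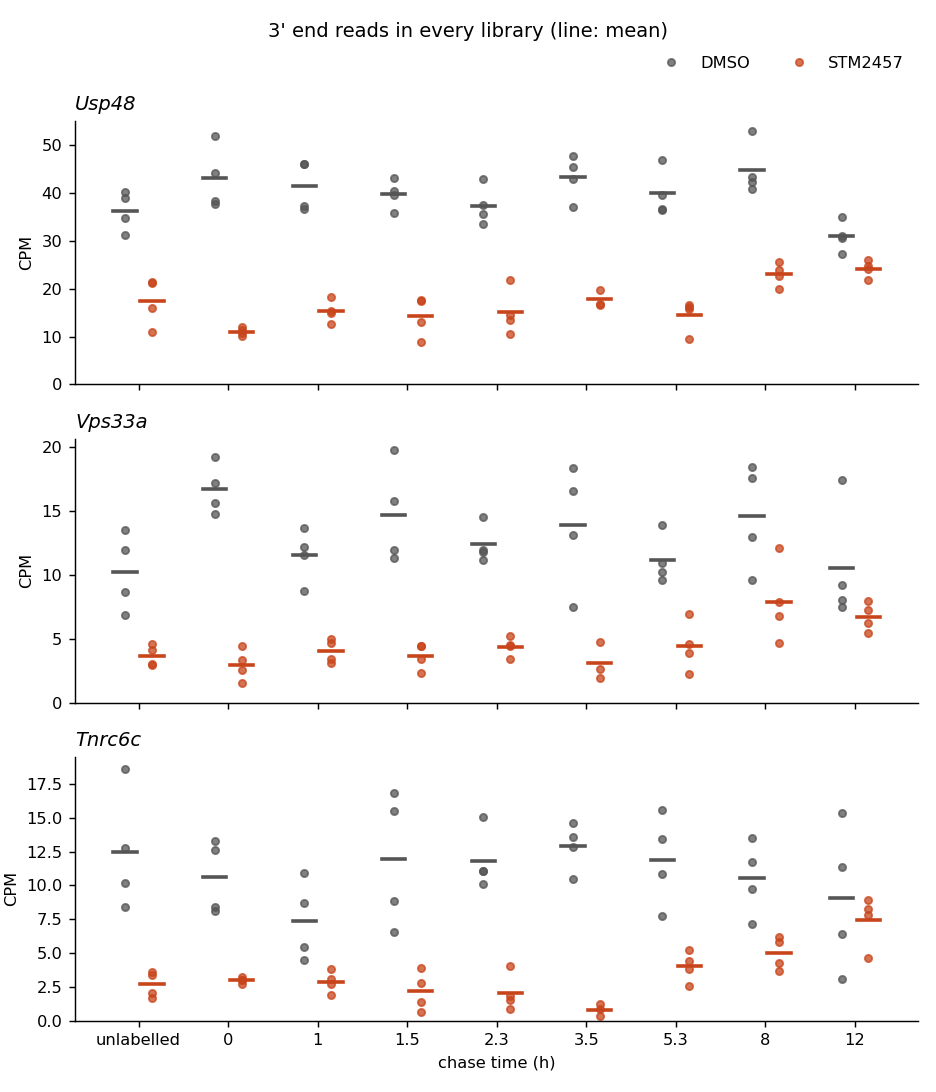
Reads of Usp48, Vps33a and Tnrc6c in every library, in CPM, DMSO in grey and STM2457 in orange, by chase time in h and in unlabelled libraries, with each condition's mean as a line. From 0 to 5.3 h and in unlabelled libraries no STM2457 point reaches a DMSO point, whereas at 12 h the highest STM2457 values (26.01, 7.93 and 8.94) come close to or pass the lowest DMSO values (27.2, 7.49 and 3.08).

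At 5.3 h Usp48 fell by 1.44 ± 0.20 (edgeR, adjusted p = 0.00141), while Vps33a at −1.32 ± 0.34 (adjusted p = 0.0276) and Tnrc6c at −1.54 ± 0.33 (adjusted p = 0.0135) missed the threshold. At 8 h Usp48 fell by 0.94 ± 0.16 (edgeR, adjusted p = 0.000154), and Vps33a at −0.87 ± 0.29 (adjusted p = 0.0556) and Tnrc6c at −1.06 ± 0.33 (adjusted p = 0.0364) again did not pass. Of all genes tested, 0.54% at 5.3 h and 1.75% at 8 h were called lower. Usp48 was thus called at each time from 1.5 to 8 h, and the other 2 genes from 1.5 to 3.5 h. With the replicate number added to the fit as a block, Usp48 missed the threshold at 5.3 h.

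After 18 h of STM2457, at 12 h of chase, the fold changes were −0.31 ± 0.18 (SE) for Usp48, −0.61 ± 0.34 for Vps33a and −0.25 ± 0.38 for Tnrc6c. Usp48 had 31.1, 30.5, 34.8 and 27.2 CPM in DMSO and 24.0, 21.8, 26.01 and 24.7 in STM2457. Vps33a had 7.49, 8.05, 17.4 and 9.20 in DMSO and 7.29, 7.93, 5.45 and 6.23 in STM2457. Tnrc6c had 3.08, 15.4, 11.4 and 6.44 in DMSO and 7.82, 8.94, 8.25 and 4.67 in STM2457. The treatments overlapped in Vps33a and Tnrc6c, and in Usp48 a narrow gap of 1.2 CPM was left. For Tnrc6c the DMSO libraries spread widely, and without DMSO replicate 2 its fold change was 0.12.

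These 12 h values belong to a comparison that was known when the genes were chosen, so they too stand without a test. Over all genes tested at 12 h, 3.52% were called lower. Of the 39 genes called lower at 0 h, 6 were called lower at 12 h, and their median log2 fold change was −1.01 at 0 h and −0.23 at 12 h. A fold change close to 0 at 12 h was therefore common to the genes picked for a low value at 0 h.

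**Figure D3:**
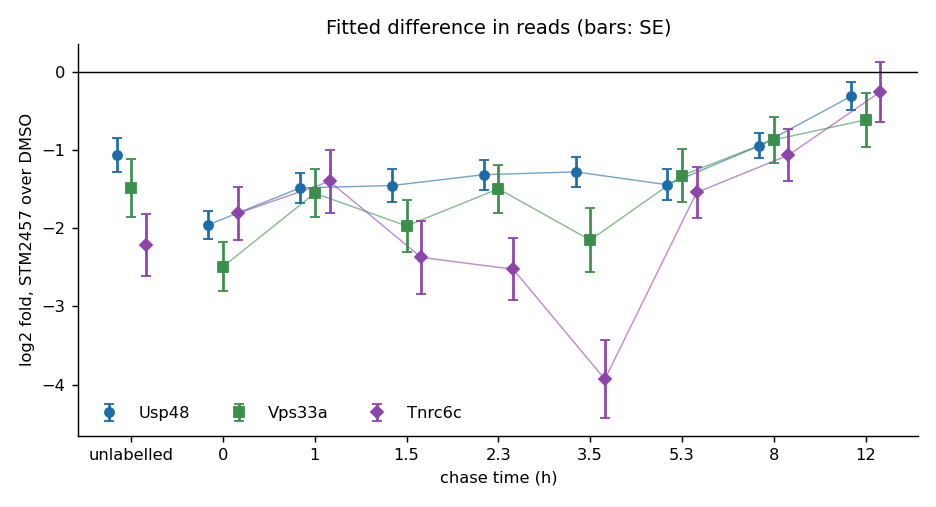
Fitted log2 fold change of reads, STM2457 over DMSO, with its SE, for Usp48, Vps33a and Tnrc6c in unlabelled libraries and by chase time in h. Values lie between −2.49 and −1.81 at 0 h, reach −3.93 for Tnrc6c at 3.5 h and lie between −0.61 and −0.25 at 12 h.

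The levels in STM2457 were higher at 12 h than at 0 h in all 3 genes. In STM2457, mean CPM went from 11.002 ± 0.840 (SD, n = 4) at 0 h to 24.1 ± 1.8 (n = 4) at 12 h for Usp48. For Vps33a they went from 2.96 ± 1.25 to 6.72 ± 1.10, and for Tnrc6c from 2.99 ± 0.20 to 7.42 ± 1.89. In all 3 genes every STM2457 library at 12 h was above every STM2457 library at 0 h, as it was in 14.3% of the genes tested. The choice of genes by a low value at 0 h favours such an order, so nothing is read from it. In DMSO, Usp48 went from 42.99 ± 6.60 to 30.9 ± 3.1. Every DMSO library at 12 h was below every DMSO library at 0 h, which held for 9.32% of the genes. A choice by the difference at 0 h also favours high DMSO values there, so nothing is read from this order either. The DMSO libraries of Vps33a (16.7 ± 2.0 and 10.5 ± 4.6) and Tnrc6c (10.6 ± 2.7 and 9.06 ± 5.40) overlapped between these times.

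A linear term in chase hours, fitted on the libraries from 1 to 8 h alone, did not use the 0 h or 12 h libraries. In STM2457 the slopes were 0.07 ± 0.02 (SE) log2 units per h for Usp48, 0.13 ± 0.04 for Vps33a and 0.15 ± 0.05 for Tnrc6c, all above 0. None passed the threshold in edgeR's test (adjusted p = 0.0562, 0.0354 and 0.0741), and 0.635% of the genes were called rising in STM2457. In DMSO the slopes were 0.01 ± 0.02, 0.00 ± 0.04 and 0.01 ± 0.05 (edgeR, adjusted p = 0.858, 0.959 and 0.923), with 0.44% of the genes called rising.

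The difference between the slopes of the treatments was 0.06 ± 0.03 log2 units per h for Usp48, 0.12 ± 0.05 for Vps33a and 0.14 ± 0.07 for Tnrc6c. It did not pass in any of them (edgeR, adjusted p = 0.712, 0.61 and 0.728), and only 0.00847% of all genes were called. A rise of the 3 genes from 1 to 8 h of chase that is particular to STM2457 was therefore not shown by this test. A line is also a coarse description of Tnrc6c, whose lowest level lay at 3.5 h, inside the range.

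Over the 9 DMSO conditions the highest mean level of a gene was 1.45 times (Usp48), 1.63 times (Vps33a) and 1.75 times (Tnrc6c) the lowest. Over the 9 STM2457 conditions this ratio was 2.19, 2.66 and 9.03. In the order of the 18 mean levels of Usp48, the 9 DMSO conditions came first, from 44.7 CPM at 8 h to 30.9 at 12 h, followed by the 9 STM2457 conditions, from 24.1 at 12 h to 11.002 at 0 h. The libraries of neighbours in this order overlapped except between DMSO at 12 h and STM2457 at 12 h, and between STM2457 at 8 h and at 3.5 h. For Vps33a the order also put all DMSO conditions first (16.7 at 0 h to 10.3 unlabelled) and then STM2457 (7.87 at 8 h to 2.96 at 0 h), and the libraries of all neighbours overlapped. For Tnrc6c the levels in DMSO ran from 12.9 at 3.5 h to 7.38 at 1 h, below STM2457 at 12 h with 7.42, and those in STM2457 down to 0.822 at 3.5 h, with overlap between all neighbours.

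Counted library by library, the treatments did not overlap in all 3 genes in unlabelled libraries and at 0, 1, 1.5, 2.3, 3.5 and 5.3 h. At 8 h they did not overlap in Usp48 and Tnrc6c, and at 12 h in Usp48 alone. Every STM2457 library lay below every DMSO library in 5.3% of the genes tested in unlabelled libraries, 5.5% at 0 h and 1.67% at 1 h. The share was 14% at 1.5 h, 5.78% at 2.3 h, 8.26% at 3.5 h and 10.2% at 5.3 h. It was 7.94% at 8 h and 11.1% at 12 h. The comparisons at 0 h and 12 h were known when the genes were chosen, so nothing is read from the order at these times.

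The T-to-C conversion rate, the share of covered T positions read as C, tells how much of the RNA still carries s4U. At 0 h the rate of Usp48 was 1.42% ± 0.36 (SD, n = 4 libraries) in DMSO and 1.18% ± 0.66 (n = 4) in STM2457. For Vps33a it was 1.11% ± 0.48 and 2.01% ± 1.55, and for Tnrc6c 1.31% ± 0.76 and 1.84% ± 0.77. The STM2457 values rest on 77, 18 and 28 conversions, against 359, 72 and 75 in DMSO, and the libraries of the treatments overlapped in each gene. While reads stood 3.5 to 5.6 times lower, no difference in labelling of the remaining reads was visible at this depth.

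During the chase the rate of Usp48 in DMSO was 1.07% ± 0.37 at 1 h, 0.861% ± 0.145 at 3.5 h and 0.222% ± 0.146 at 5.3 h (SD, n = 4). In STM2457 it was 0.83% ± 0.85 (n = 4), 0.702% ± 0.182 (n = 3) and 0.180% ± 0.146 (n = 4) at these times. At 12 h the rate of Usp48 was 0.247% ± 0.269 in DMSO and 0.020% ± 0.024 in STM2457 (n = 4). These means rest on 36 conversions in DMSO, 15 in replicate 1 and 20 in replicate 3, and on 3 in STM2457. The rates of both treatments thus dropped most between 3.5 and 5.3 h, as did those over all genes, whose median library went from 1.01% to 0.534% in DMSO and from 0.917% to 0.524% in STM2457. In Vps33a and Tnrc6c the rates were also lower from 5.3 h on, at 0.461% ± 0.443 and 0.20% ± 0.24 in DMSO at 5.3 h, but their libraries spread too widely to follow the decay in STM2457.

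None of the 21 comparisons of rates from 1 to 12 h passed after Benjamini-Hochberg adjustment in the two-sided exact permutation test, whose smallest possible p-value is 0.029. Tnrc6c at 2.3 h was the only one to reach it, with 1.15% ± 0.26 in DMSO and 0.338% ± 0.423 in STM2457, and its adjusted p was 0.6. At least 13 of the 21 comparisons would have to reach the smallest p-value for any adjusted p under 0.05, so the test could hardly pass and says nothing on whether the rates differed. At 3.5 h no conversion was found in Tnrc6c in the 3 STM2457 libraries, at 348 covered T positions in all. The exact 95% binomial interval of this rate reaches 1.05%, above the pooled DMSO rate of 0.762%, so that the rates cannot be told apart at this depth. Reads are not independent molecules and 1 read can hold several conversions, so such intervals cover counting error only.

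**Figure D4:**
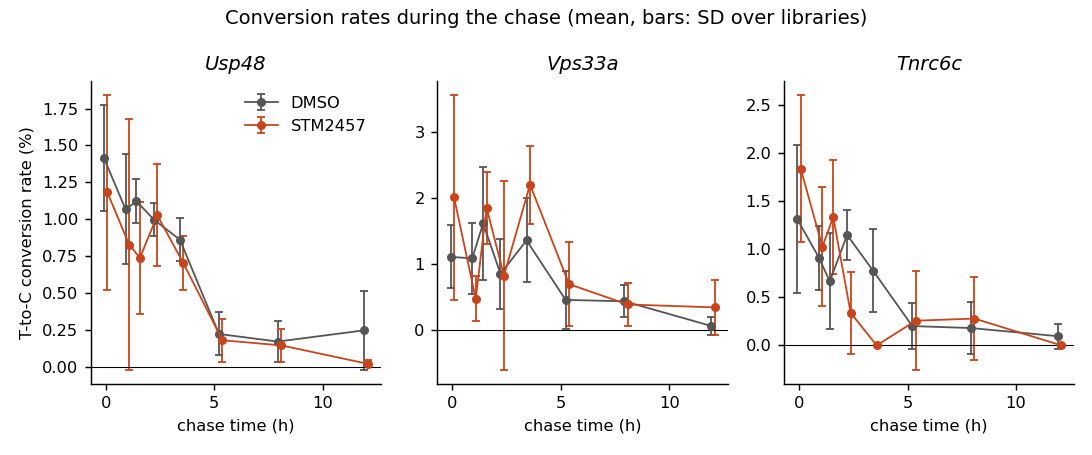
Mean T-to-C conversion rate in percent by chase time in h for Usp48, Vps33a and Tnrc6c in DMSO (grey) and STM2457 (orange), with the SD over libraries as bars. In Usp48 the SD bars of the treatments overlap at every chase time and the means drop most between 3.5 and 5.3 h, and in Vps33a and Tnrc6c the bars are wide.

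Half-lives were fitted to the mean rates after subtraction of the unlabelled rate, and Usp48 alone passed the filters in both treatments. With DMSO it was 3.19 h and with STM2457 3.17 h, at residual standard errors of 0.106 and 0.140 relative to a starting rate of 1. Medians of 3.19 h (DMSO) and 3.45 h (STM2457) were found for 7408 transcripts that passed in both. The 4 replicate series of Usp48 gave 2.898, 5.28, 1.82 and 3.60 h in DMSO and 2.16, 17.1, 3.44 and 1.04 h in STM2457, where the second fit failed the filter with a residual standard error of 1.08. The series therefore spread far more than the treatments differed. The only test on them, on 3 complete pairs, was chosen after seeing the data and could not pass (exact sign-flip permutation test, p = 0.75, smallest possible 0.25).

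For Tnrc6c a half-life of 2.89 h was obtained in DMSO, and the STM2457 fit did not pass (residual standard error 0.618). For Vps33a neither fit passed, with residual standard errors of 0.514 and 0.550. The unlabelled rate of Vps33a, which enters the fit as background, was 0.434% in DMSO and 0.716% in STM2457 (18 and 9 conversions), and that of Tnrc6c in STM2457 was 0.888% (12 conversions, 9 of them in replicate 1). In Usp48 it was 0.0437% and 0%. The high background values of both genes thus rest on few conversions. The exact 95% binomial intervals of Vps33a were 0.257% to 0.685% in DMSO and 0.328% to 1.35% in STM2457. That of Tnrc6c in STM2457 was 0.459% to 1.55%. These lie above the rates over all genes in the unlabelled libraries, 0.0733% to 0.093%. Why these backgrounds were higher was not tested. Without subtraction both Tnrc6c fits passed. The DMSO half-life of Tnrc6c was then 3.10 h beside 1.38 h with STM2457, a log2 ratio of −1.17 that was not tested.

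Genes of the same complexes and families, and genes that act with these, are given from 3 lists. Their counts describe the lists and set none apart from all genes tested. The HOPS and CORVET list held 9 further genes, all tested, of which 0 were called in either direction in each of the 9 comparisons. Their median log2 fold change was −0.08 at 0 h and −0.12 in unlabelled libraries, beside −0.00 and −0.01 over all genes tested, and the lowest value was that of Vps8 in unlabelled libraries (−1.04 ± 0.47, edgeR, adjusted p = 0.226). Vps33b, the paralogue of Vps33a that acts with Vipas39, had 14.3 CPM in DMSO and 17.3 in STM2457 at 0 h, a log2 fold change of 0.30 ± 0.22 (edgeR, adjusted p = 0.487).

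The RISC and GW182 list held 15 further genes, of which 14 were tested. At 0 h and in unlabelled libraries 0 of 14 were called in either direction, with a median log2 fold change of −0.06 in each. Tnrc6a, a paralogue of Tnrc6c, had −0.41 ± 0.20 at 0 h (edgeR, adjusted p = 0.248) and −0.86 ± 0.21 at 1 h (adjusted p = 0.229), and at 3.5 h it fell by 0.91 ± 0.22 (adjusted p = 0.00708), from 31.5 to 16.7 CPM. Tnrc6b, the other paralogue, was not called at any time and had −0.17 ± 0.32 at 0 h (adjusted p = 0.818) and −0.89 ± 0.28 at 5.3 h (adjusted p = 0.0564). Ajuba, a LIM protein that binds Argonaute, rose by 0.67 ± 0.14 at 8 h (adjusted p = 0.00203) and by 0.88 ± 0.17 at 12 h (adjusted p = 0.00032), which made 1 of 14 genes called at each of these times.

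Of 47 further ubiquitin-specific proteases, 38 were tested at 0 h and 39 in unlabelled libraries, and 0 were called in either direction. Their median log2 fold change was 0.01 at 0 h and 0.03 in unlabelled libraries, with values from −0.48 to 0.61 at 0 h. Over the other times, Usp21 rose by 0.83 ± 0.19 at 1.5 h (edgeR, adjusted p = 0.00264) and Usp20 fell by 0.88 ± 0.19 at 12 h (adjusted p = 0.000873). Of all genes tested, 0.999% were called in either direction in unlabelled libraries, 1.42% at 0 h, 0% at 1 h, 13.7% at 1.5 h, 4.17% at 2.3 h, 2.83% at 3.5 h, 1.48% at 5.3 h, 4.98% at 8 h and 9.28% at 12 h.

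**Figure D5:**
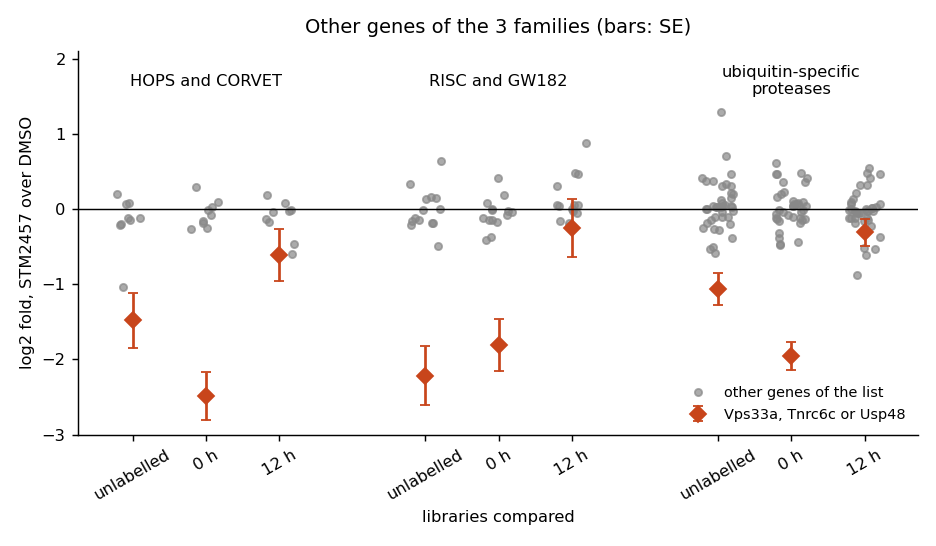
Log2 fold change of reads, STM2457 over DMSO, in unlabelled libraries and at 0 h and 12 h. Grey points are the other tested genes of 3 lists, and orange ones are Vps33a, Tnrc6c and Usp48 with SE. At 0 h the grey points lie between −0.48 and 0.61, and the orange ones between −2.49 and −1.81.

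On either side of each of the 3 genes, the nearest gene tested at 0 h did not pass there. Genes that did not pass the filter on low counts were left out. None of the counted genes overlaps the 3 genes. At 0 h the log2 fold changes of the neighbours of Usp48 were 0.41 ± 0.28 for Hspg2 and 0.13 ± 0.39 for Rap1gap (edgeR, adjusted p = 0.443 and 0.889). Those of the neighbours of Vps33a were 0.23 ± 0.17 for Diablo and 0.06 ± 0.41 for Clip1 (adjusted p = 0.473 and 0.954). For Tnrc6c they were 0.13 ± 0.14 for Gm8624 and 0.55 ± 0.17 for Tmc6 (adjusted p = 0.672 and 0.0647), and Tmc6, whose 3′ end lies 2549 bases beyond that of Tnrc6c on the other strand, had the largest of these values. Gm8624, a transcribed processed pseudogene, lies 232572 bases away on the other side.

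Over the 18 conditions, Usp48 and Vps33a followed each other most closely, with a Pearson correlation of their mean log2 CPM, with a pseudocount of 1, of 0.97, the highest for either gene among 9333 genes with a mean of at least 5 CPM. Tnrc6c correlated with Vps33a at 0.92 and with Usp48 at 0.88. Besides these, the genes with the most similar course were Hnrnpl (0.93), B230354K17Rik (0.92), Hnrnpll (0.91) and Oip5os1 (0.90) for Usp48, and Hnrnpl (0.91), Hnrnpll (0.90) and Cdc34 (0.90) for Vps33a. For Tnrc6c they were Oip5os1 (0.93), Hnrnpll (0.90), Atp6v0a2 (0.89) and Cdc34 (0.89). These genes also stood lower at 0 h, with log2 fold changes from −1.60 for B230354K17Rik to −0.42 for Atp6v0a2, and closer to 0 at 12 h, from −0.53 for Hnrnpll to 0.12 for Cdc34. The correlations are over conditions that share the treatment difference which chose the 3 genes, so they describe the course and carry no test.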

How the data were processed

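SLAM-seq libraries (QuantSeq 3′ FWD) of male mESC were analysed. The authors used SLAM-DUNK 0.4.3 with variants of unlabelled libraries masked, and collapsed the counts of 3′ UTR windows (GENCODE M23) per gene. They deposited counts of reads, covered T positions and T-to-C conversions without normalization, and the conversion rate as a fraction. The submitters' processing notes name FastQC 0.11.8 and GRCm38.p6. Chase hours come from the study's description, and groups from the sample labels.

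Reads were tested per condition with edgeR 4.0.16 (R 4.3.3; quasi-likelihood, TMM, filterByExpr, Benjamini-Hochberg over all genes, adjusted p-value under 0.01). SE are from that fit. Half-life filters were a mean T coverage over 100, 0.67 to 18 h and a residual standard error up to 0.3. DESeq2 1.42.0, other size factors, no filter, a replicate block and leaving out libraries were alternatives. Named genes are the 3 members, their nearest tested neighbours, the 5 genes with the highest correlation per member, the genes next in rank at 0 h, and in 3 family lists the paralogues and the 2 called Usp genes with the largest fold. Ajuba and Vps8 were named after their values were seen. The members and lists were chosen with earlier results of these data known. The tables give no window positions, so gene models are from GENCODE M21 (97.2% of 10852 tested genes matched).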

Additional observations from a re-analysis of the deposited data

Results flagged for a closer look

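In 100 groups of 4 libraries, the CPM or conversion rates of the 3 genes were searched for a library far from the other 3. The rule was a gap to the nearest, over the whole range, above Dixon's 95% critical value. For normally distributed values chance gives this in about 1 of 20 groups. That rate does not hold for sparse conversion rates, since any value above 0 meets the rule where the other libraries are at 0. The rule was met by 8 groups. For Usp48 they were the reads in STM2457 replicate 2 at 5.3 h (9.38 CPM, the others 15.8 to 16.5) and the conversion rate in DMSO replicate 3 at 3.5 h (0.645%, the others 0.908% to 0.951%). For Vps33a they were the rates in DMSO replicate 2 at 2.3 h (1.64%, the others 0.496% to 0.642%), DMSO replicate 4 at 12 h (0.269%, the others 0) and STM2457 replicate 4 at 2.3 h (2.96%, the others up to 0.358%). For Tnrc6c they were the rates in unlabelled DMSO replicate 1 (0.193%, the others 0), DMSO replicate 3 at 8 h (0.582%, the others up to 0.0805%) and STM2457 replicate 3 at 5.3 h (1.02%, the others 0). Their causes were not tested.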

How the results depend on the processing

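Low counts limit what these libraries can show of Vps33a and Tnrc6c: in STM2457 their libraries hold 9 to 73 and 2 to 53 reads, and their rates rest on few conversions. Over 319 fold changes of the 3 genes under the alternatives, 318 were below 0, and the exception was Tnrc6c at 12 h, which ran from −0.53 to 0.12 with each library left out (0.12 without DMSO replicate 2). Of 355 tested fold changes and slopes of the 3 genes under the alternatives, 334 kept their direction and their side of the threshold.

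With DESeq2, Vps33a passed in unlabelled libraries (−1.49), Usp48 (−1.49) and Vps33a (−1.56) at 1 h, and Vps33a (−1.32) and Tnrc6c (−1.54) at 5.3 h. At 3.5 h it gave no adjusted p for Vps33a and Tnrc6c. Genes called in either direction numbered 301 in unlabelled libraries (107 with edgeR), 308 at 0 h (154), 44 at 1 h (0) and 747 at 5.3 h (159). Without the filter on low counts they were 349, 340 and 407 in unlabelled libraries and at 0 and 5.3 h, and Tnrc6c passed at 5.3 h (−1.54). The slope difference was called in 2 genes with DESeq2 size factors, in 2 without the filter and in 5 on the scale of log2(chase hours + 1), against 1. Why these counts moved was not tested.

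The replicate numbers paired the libraries only weakly on average. Of 35 same-numbered pairs 7 deviated together with a correlation over 0.1 (mean 0.02, from −0.17 to 0.46). At 0 h every correlation was above 0, from 0.06 to 0.15, so a pairing at single times was not settled. The main tests are without the block. With the replicate block, 205 genes were called in unlabelled libraries, 476 at 0 h, 17 at 5.3 h and 852 at 8 h (541 without it), and Usp48 at 5.3 h missed the threshold (−1.45, adjusted p = 0.011). Of the 30 tested fold changes and slopes of the 3 genes, the other 29 kept their side of the threshold with the block. No rate test could pass with pairs, whose smallest p-values are 0.125 with 4 and 0.25 with 3. A block fit of half-lives over all transcripts could not include a member, since none has a half-life in every series. In a comparison chosen after seeing the data, the 3 complete pairs of Usp48 gave a mean log2 ratio of −0.43 ± 0.78 (SE; exact sign-flip permutation test, p = 0.75, smallest possible 0.25).

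With each library left out in turn, the folds of Usp48 and Tnrc6c in unlabelled libraries ran from −1.17 to −0.91 and from −2.39 to −1.96. Called genes ran from 29 to 90 in unlabelled libraries, 63 to 183 at 0 h, 892 to 1830 at 1.5 h, 264 to 476 at 2.3 h, 151 to 363 at 3.5 h, 29 to 967 at 5.3 h (967 without DMSO replicate 1, 29 without STM2457 replicate 1, against 159 with all) and 354 to 620 at 8 h. Called slopes ran from 31 to 220 in DMSO, 60 to 168 in STM2457 and 0 to 2 for their difference. The DMSO slopes, close to 0, ran from −0.015 to 0.023 for Vps33a and from −0.030 to 0.056 for Tnrc6c, changing sign, whereas the STM2457 slopes of the members were above 0 in 36 of 36 alternatives and past the threshold in 0. The log2 half-life ratio of Usp48 ran from −0.75 (without STM2457 replicate 2) to 0.54 (without STM2457 replicate 4), and was −0.50 with a log-linear fit.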
